A study of Mus musculus with 16 samples.

Results

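The acute-phase proteins examined here were 10 liver genes chosen by name, namely the serum amyloid A genes Saa1, Saa2, Saa3 and Saa4, the orosomucoid genes Orm1 and Orm2, lipocalin 2 (Lcn2), haptoglobin (Hp), hemopexin (Hpx) and serum amyloid P component (Apcs). They were taken from the 57010 genes of a table of liver RNA-seq levels, in which each name occurred in 1 row, and all 10 were among the 11766 genes that averaged 1 or more TPM (transcripts per 1e+06 transcripts) and entered the tests. The livers came from 16 male wild-type C57BL/6J mice, with 4 mice in each of 4 groups. Control mice received neither agent, Cd mice received cadmium chloride (CdCl2) at 1.25 mg/kg by daily intraperitoneal injection over the last 7 days, Se mice ate food with 2 ppm selenomethionine (SeMet) over 3 months, and Cd+Se mice had both treatments. The study's methods give an age of 8 to 12 weeks, and its outline of the experiment starts the 3-month diet at 8 weeks, so the age when the livers were taken is not clear. Whether mice without Cd received a vehicle injection was not stated in the sources used here. The comparisons asked how Cd changed acute-phase mRNA in the liver and whether the level differed when the diet held Se. Values below are given in the order of the mouse numbers, which are 27, 28, 29 and 30 for control, 1, 2, 5 and 6 for Cd, 39, 40, 41 and 44 for Se, and 13, 14, 15 and 16 for Cd+Se.

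Acute-phase proteins are plasma proteins whose production by the liver changes within hours to days of infection or tissue injury. Interleukin 6 acts on hepatocytes through the receptor subunit Il6st, the kinase Jak1 and the transcription factor Stat3, while interleukin 1 and tumour necrosis factor act through NF-kappa-B, and C/EBP factors join in at many of the genes. In mice, serum amyloid A and serum amyloid P are the classical major reactants, and C-reactive protein (Crp) responds little. The 4 Saa genes lie within 42.3 kb of chromosome 7, with Saa3 at chr7:46711998-46715700, Saa4 at chr7:46727998-46732603 and Saa1 at chr7:46740497-46742980 on the minus strand and Saa2 at chr7:46751790-46754313 on the plus strand (GRCm38, GENCODE M21). The Orm genes lie within 21.3 kb of chromosome 4 on the plus strand, with Orm1 at chr4:63344560-63348163 and Orm2 at chr4:63362449-63365878. Lcn2 lies at chr2:32384633-32388252, Hp at chr8:109575128-109579172, Hpx at chr7:105591613-105600137 and Apcs at chr1:172893961-172895041, each on the minus strand.

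Since Saa1 and Saa2 moved as a pair and Saa3 moved apart from them, the 250 bases before the start of these 3 genes are shown (RefSeq, GRCm38.p6, written 5′ to 3′ on the strand of the gene). Capitals mark matches on either strand to TTNNGNAA, a C/EBP-type motif.
Saa1 (chr7:46742981-46743230, minus strand): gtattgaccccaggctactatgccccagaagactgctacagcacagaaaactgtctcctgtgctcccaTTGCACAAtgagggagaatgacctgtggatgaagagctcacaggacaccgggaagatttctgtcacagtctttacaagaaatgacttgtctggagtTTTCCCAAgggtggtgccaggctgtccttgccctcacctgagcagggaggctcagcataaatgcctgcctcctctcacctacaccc
Saa2 (chr7:46751583-46751832, plus strand): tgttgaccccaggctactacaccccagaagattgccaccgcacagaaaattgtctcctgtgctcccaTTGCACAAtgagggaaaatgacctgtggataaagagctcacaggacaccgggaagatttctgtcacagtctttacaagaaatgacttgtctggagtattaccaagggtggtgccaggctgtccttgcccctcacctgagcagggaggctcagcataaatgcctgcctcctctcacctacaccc
Saa3 (chr7:46715677-46715926, minus strand): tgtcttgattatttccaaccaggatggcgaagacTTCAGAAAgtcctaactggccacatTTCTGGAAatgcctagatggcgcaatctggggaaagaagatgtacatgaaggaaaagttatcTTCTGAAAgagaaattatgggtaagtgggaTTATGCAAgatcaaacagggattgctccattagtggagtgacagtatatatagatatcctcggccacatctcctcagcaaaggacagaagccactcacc
The Saa1 and Saa2 stretches were 94.8% identical, whereas Saa1 and Saa3 were 48.9% identical. Counted from the RefSeq start to the first base of the match, the motif stood at −182 and −86 in Saa1, at −183 in Saa2, and at −216, −191, −129 and −99 in Saa3. For Saa2 and Saa3 the RefSeq start lies inside the GENCODE positions given above, so these stretches overlap them. That of Saa1 does not. RefSeq windows from 250 bases before to 50 bases after the start were at hand for 8 of the 10 genes, and Orm1 and Hp had no entry. The C/EBP-type motif occurred in 7 of these 8 windows and in 40.7% of all 32817 windows. The STAT motif TTCNNNGAA occurred in 1 of the 8, that of Apcs, and in 8.29% of all windows. The NF-kappa-B consensus occurred in 0 of the 8 and in 8.46% of all windows. Both strands were searched, the motifs may overlap each other, and a match is a description of the letters only.

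In control liver the 10 genes together held 0.932% ± 0.612 of all TPM (SD, n = 4), with a range of 0.528% to 1.83%. The share was 1.99% ± 0.645 in Cd, 0.900% ± 0.390 in Se and 2.35% ± 1.42 in Cd+Se mice. By mean TPM, which is scaled by transcript length, the control order ran from Hpx, Hp, Saa1, Orm1 and Saa2 through Saa4, Apcs and Orm2 to Lcn2 and Saa3, and the ranges of all neighbours in this order overlapped. In Cd mice Saa1 stood first and Saa4 last, and only the steps from Orm1 to Orm2 and from Apcs to Saa3 were without overlap.

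After Cd, 6 of the 10 genes rose against control (Saa2, Saa3, Lcn2, Hp, Hpx and Apcs) at an adjusted p under 0.05 by limma with Benjamini-Hochberg adjustment over all genes tested, and none fell. Across all genes tested, 30.8% passed this threshold and 5.82% passed it as higher. The median log2 fold change of the 10 genes was 1.62, against −0.17 for all genes tested, and 9 of the 10 estimates were positive. In Saa3, Hp and Apcs every Cd mouse was above every control mouse, which held for 6.44% of all genes, and in Saa4 every Cd mouse was below, which held for 27.8%. The 4 genes not called were Saa1, Saa4, Orm1 and Orm2. All 10 genes had an unadjusted p under 0.05, as did 42.5% of all genes tested. The count fell to 3 (Saa3, Lcn2 and Apcs) without control mouse 28 or 29 or Cd mouse 2, 5 or 6 and rose to 9 without control mouse 27. With all mice it was 4 after quantile normalization and 8 after each library was centred on its median. Fold changes are differences of mean log2(TPM + 1) and therefore understate changes of low genes. In bulk liver, a change in the number of cells of a type and a change in RNA per cell cannot be told apart.

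**Figure D1:**
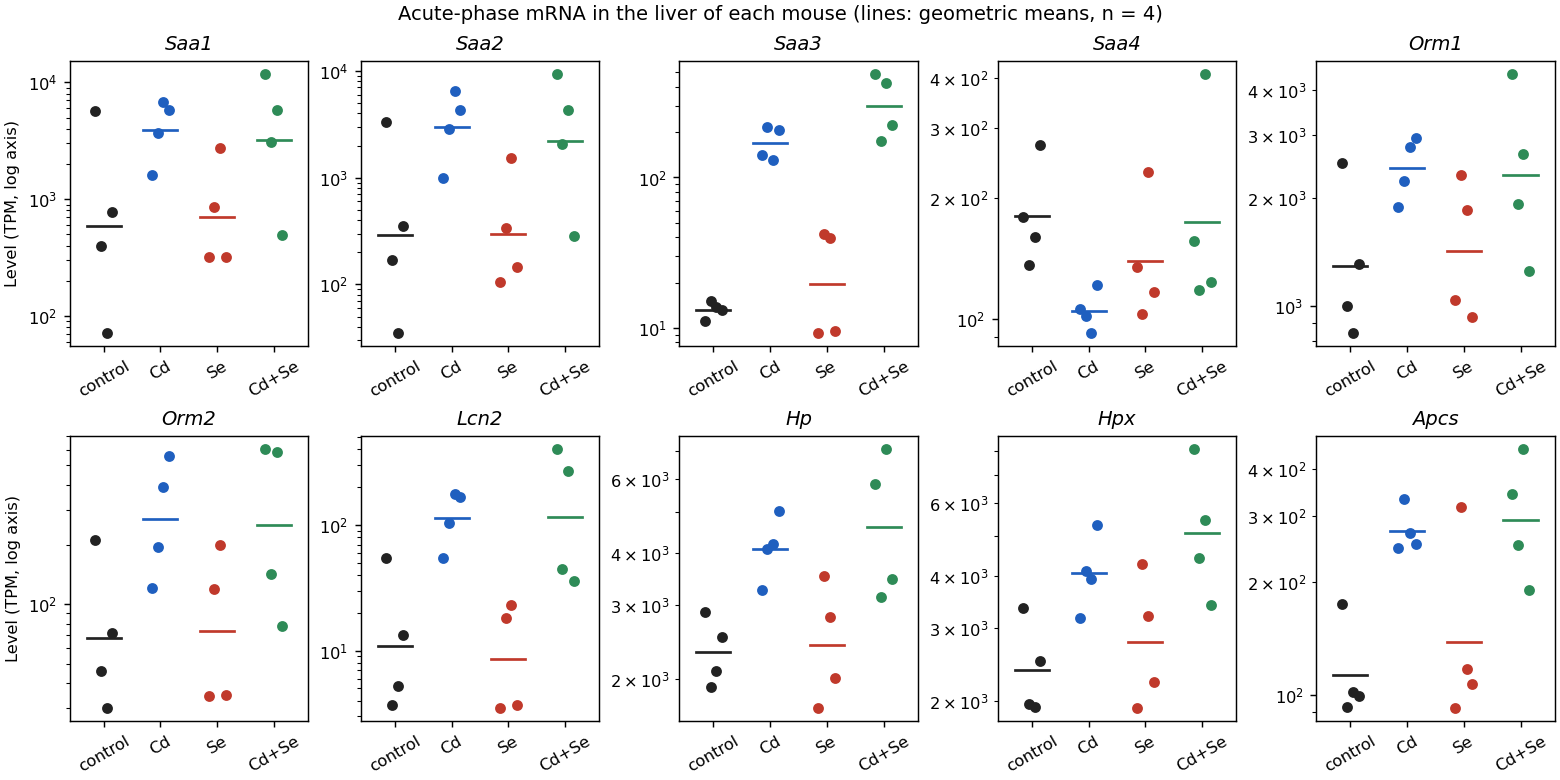
Level of each acute-phase gene (TPM, log axis) in the liver of each mouse by group, with 1 point per mouse and a line at the geometric mean of the 4 mice. In Saa3 the 8 mice given Cd sit between 131 and 488 TPM and the 8 others between 9.25 and 42.25 TPM, whereas in Saa1 control mouse 27 sits among the Cd mice.

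Saa1 and Saa2 encode the acute serum amyloid A apolipoproteins of high-density lipoprotein. Saa1 was at 5641, 398, 71.6 and 776 TPM in the control mice and at 1599.6, 3695, 6741 and 5808 TPM in the Cd mice. It was at 318, 849, 2768 and 321 TPM in the Se mice and at 11796, 3084, 5860.3 and 494 TPM in the Cd+Se mice. Control mouse 27 lay within the range of the Cd mice, while the other control mice lay below all of them. Cd+Se mouse 16 lay below all Cd mice and within the control range. The difference between Cd and control was 2.71 (log2, SE 1.13, adjusted p = 0.0792), which was not called, and it was 3.79 (adjusted p = 0.0156) without control mouse 27.

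Saa2 followed the same order of mice, at 3309.6, 169, 35.2 and 355 TPM in control and 1003, 2848, 6541 and 4326 TPM in Cd liver. In the Se mice it was at 106, 339.6, 1526 and 145 TPM, and in the Cd+Se mice at 9360.2, 2053, 4335 and 283 TPM. Groups overlapped through control mouse 27 and Cd+Se mouse 16 here as well. Saa2 rose in Cd against control by 3.36 (log2, SE 1.24, adjusted p = 0.0496). This call sits at the threshold and was made under 11 of 25 alternatives. Leaving out control mouse 28, 29 or 30, Cd mouse 2, 5 or 6, Se mouse 39, 40 or 44, or Cd+Se mouse 14 or 15 ended it, with adjusted p up to 0.167. Because the transcripts of the pair are 93.9% identical with a longest shared run of 99 bases, reads can be divided wrongly between them, and the sum was tested as well. The sum of Saa1 and Saa2 differed by 2.96 (log2) between Cd and control, with p = 0.0857 in an exact two-sided permutation test, where 0.0286 is the smallest p that 4 against 4 mice allow. Without control mouse 27 the difference of the sum was 4.07, with an exact p of 0.0286.

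Saa3, a serum amyloid A gene known for expression in macrophages and other cells outside the hepatocyte as well as in the inflamed liver, separated the mice by Cd with no overlap. It was at 11.0, 15.1, 13.8 and 13.2 TPM in control and at 141, 216, 131 and 206 TPM in Cd liver. It was at 9.25, 42.25, 39.3 and 9.5 TPM in Se and at 488, 176, 426 and 222 TPM in Cd+Se liver. Control mouse 27, the highest control for Saa1, was the lowest for Saa3, and Cd+Se mouse 16, the lowest of its group for Saa1, was within the Saa3 range of that group. Saa3 rose in Cd against control by 3.58 (log2, SE 0.44, adjusted p = 0.000118) and was called under 25 of 25 alternatives. The means were 173 ± 43.6 TPM in Cd and 13.3 ± 1.69 TPM in control liver (SD, n = 4). A complete separation of the 8 mice given Cd from the 8 without was found in 0.391% of all genes tested, and Saa3 was the sole gene of the 10 with it.

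Saa4 encodes the serum amyloid A protein that is made constitutively. It was at 179, 136, 159.9 and 273 TPM in control, 106, 101.4, 92.2 and 121 TPM in Cd, 134, 103, 233 and 117 TPM in Se and 157, 118, 409 and 123 TPM in Cd+Se liver. All Cd mice lay below all control mice, and Cd+Se mouse 15 lay above every other mouse of the study. The difference between Cd and control was −0.78 (log2, SE 0.34, adjusted p = 0.0894), the sole negative estimate of the 10, and it was not called. Without Cd+Se mouse 15, which enters through the shared estimate of the spread, the adjusted p was 0.0203.

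The orosomucoids are alpha-1-acid glycoproteins that bind drugs and lipids in plasma. Orm1 was at 2504, 1002, 843 and 1307 TPM in control and at 1882, 2226, 2764 and 2938 TPM in Cd liver. In Se liver it was at 1038, 2317, 1849.7 and 931 TPM, and in Cd+Se liver at 4421, 1928, 2657 and 1254 TPM. Control mouse 27 again lay within the Cd range, and Cd+Se mouse 16 again lay within the control range. Orm2 was 211, 46.4, 30.1 and 71.3 TPM in control and 121, 195, 389.6 and 559.95 TPM in Cd liver. It was 34.5, 119.99, 198 and 35.1 TPM in Se and 604, 142, 585 and 78.0 TPM in Cd+Se liver. Orm2, the lower of the pair by TPM, had the larger ratio of highest to lowest mouse, and its Cd range overlapped the control range through mouse 27 alone. Cd differed from control by 0.90 in Orm1 (log2, SE 0.39, adjusted p = 0.0873) and by 1.96 in Orm2 (log2, SE 0.76, adjusted p = 0.0608), neither of which was called. Without control mouse 27 these were 1.22 (adjusted p = 0.0279) and 2.51 (adjusted p = 0.0276). Orm2 was also called without Cd mouse 1 (2.35, adjusted p = 0.0399) and without Cd+Se mouse 16 (1.96, adjusted p = 0.0464). After each library was centred on its median, Orm1 and Orm2 were called by limma (adjusted p = 0.0465 and 0.0488). After quantile normalization neither was called (adjusted p = 0.123 and 0.0634). Transcripts of Orm1 and Orm2 are 91.0% identical, and the third gene of the cluster, Orm3, was far lower at 2.14 ± 3.03 TPM in control and 3.995 ± 1.12 TPM in Cd liver (log2 difference 1.04, adjusted p = 0.110). The sum of the 3 Orm genes differed by 0.99 (log2) between Cd and control, with an exact permutation p of 0.0857, and by 1.32 with an exact p of 0.0286 without control mouse 27.

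Lcn2 encodes lipocalin 2, which withholds iron from bacteria by binding their siderophores and is also stored in neutrophil granules. It was at 55.05, 3.71, 5.28 and 13.2 TPM in control and at 54.8, 104, 175 and 168 TPM in Cd liver. It was at 3.5, 18.1, 23.2 and 3.72 TPM in Se and at 403, 44.9, 272 and 35.8 TPM in Cd+Se liver. Control mouse 27 was at the level of the lowest Cd mouse, so that these groups overlapped, whereas every Cd+Se mouse was above every Se mouse. Lcn2 rose in Cd against control by 3.21 (log2, SE 0.86, adjusted p = 0.0112) and was called under 25 of 25 alternatives, with estimates from 2.75 to 3.94.

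Haptoglobin and hemopexin bind free hemoglobin and free heme, respectively, and were the most abundant of the 10 mRNAs in control liver. Hp was at 2897.5, 1909, 2087 and 2519 TPM in control, all below the 3254, 4091, 4205 and 5021 TPM in Cd liver. It was at 1706, 3515, 2815 and 2015 TPM in Se and at 5847, 3136, 7070.1 and 3471 TPM in Cd+Se liver. Hpx was at 3357, 1968, 1937 and 2504 TPM in control and at 3168, 4133, 3934 and 5317 TPM in Cd liver. It was at 1929, 4293, 3219 and 2226 TPM in Se and at 8102, 4432, 5467 and 3416 TPM in Cd+Se liver. Hpx overlapped between Cd and control through control mouse 27, and Se mouse 40 reached Cd levels in both genes. Hp rose in Cd against control by 0.82 (log2, SE 0.26, adjusted p = 0.0284) and Hpx by 0.77 (log2, SE 0.28, adjusted p = 0.0471). The call of Hp was made under 18 and that of Hpx under 12 of 25 alternatives. Hp lost its call without control mouse 28 or 29 or Cd mouse 2, 5 or 6 (adjusted p up to 0.0821). Hpx lost it without these and also without control mouse 30, Se mouse 41 or 44, or Cd+Se mouse 14 or 15 (adjusted p up to 0.125).

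Apcs encodes serum amyloid P, a pentraxin that is a major acute-phase protein of the mouse. It was at 174, 92.8, 102 and 99.6 TPM in control, below the 247, 333, 270.2 and 252 TPM in Cd liver in each case. It was at 92.3, 318, 117 and 107 TPM in Se and at 343, 251, 452 and 190.3 TPM in Cd+Se liver. Control mouse 27 and Se mouse 40 each stood above the rest of their group. Apcs rose in Cd against control by 1.27 (log2, SE 0.34, adjusted p = 0.0105) and was called under 25 of 25 alternatives.

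The Se diet alone left no call among the 10 genes (0 of 10 by limma, beside 0% of all genes tested). At an unadjusted p under 0.05 the count was also 0 of 10, beside 3.86% of all genes tested. The estimates ran from −0.37 for Saa4 to 0.55 for Saa3 on the log2 scale, with wide intervals such as −2.16 to 2.63 for Saa1. When Cd+Se was compared with Cd, 0 of the 10 genes were called, while 15.9% of all genes tested were. Saa4 alone had an unadjusted p under 0.05, at a log2 difference of 0.73 (adjusted p = 0.142 by limma), so that 1 of the 10 passed it, beside 33.1% of all genes tested. Saa3 was 328 ± 152 TPM in Cd+Se and 173 ± 43.6 TPM in Cd liver, a log2 difference of 0.82 with a 95% interval of −0.11 to 1.76 (adjusted p = 0.202). For Hp the difference was 0.17 (interval −0.39 to 0.73), for Apcs 0.10 (−0.61 to 0.81) and for Lcn2 0.025 (−1.80 to 1.85). The intervals of Saa1 and Saa2 were wider still, at −2.68 to 2.11 and −3.07 to 2.18, so a halving or a doubling by Se could not be told from no change in these genes. The sum of Saa1 and Saa2 differed by −0.35 (exact permutation p = 0.771) and that of the Orm genes by −0.063 (exact permutation p = 0.857).

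Within Se-fed mice, Cd+Se was higher than Se in all 10 estimates, with a median of 1.42 against −0.034 for all genes tested. Saa3 was called (log2 difference 3.86, SE 0.44, adjusted p = 0.000327), so that 1 of 10 genes passed, beside 0.714% of all genes and 0.544% as higher. Lcn2 differed by 3.55 (SE 0.86, adjusted p = 0.0808) and Saa2 by 2.88 (SE 1.24, adjusted p = 0.400), neither of which was called, and 7 of the 10 had an unadjusted p under 0.05, beside 10.9% of all genes tested. Every Cd+Se mouse was above every Se mouse in Saa3 and Lcn2, a pattern of 1.96% of all genes. Lcn2 was not called with all mice, and the count of called genes was 2 without Se mouse 40 and without Cd+Se mouse 16. Against control, which the first comparison also uses, Cd+Se gave a call in Saa3 (log2 difference 4.41, SE 0.44, adjusted p = 0.000102), beside 0.484% of all genes called and 0.314% called higher. For Lcn2 the difference was 3.24 (adjusted p = 0.126), for Apcs 1.37 (adjusted p = 0.0951), for Hpx 1.10 (adjusted p = 0.109) and for Hp 0.99 (adjusted p = 0.127). These estimates resembled those of Cd against control in size, and 9 of the 10 had an unadjusted p under 0.05, beside 10.9% of all genes tested, but with far fewer genes called across the table the adjustment was harsher. For Lcn2 an unadjusted p of 0.00174 became 0.126 here, while 0.00185 became 0.0112 in Cd against control. All Cd+Se mice were above all control mice in Saa3, Hp, Hpx and Apcs, a pattern of 3.88% of all genes. The count was 2 without Se mouse 40.

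Whether the Cd effect itself differed between the diets was tested as an interaction, and 0 of the 10 genes were called, beside 1.04% of all genes. Saa4 alone had an unadjusted p under 0.05 (log2 interaction 1.11, adjusted p = 0.198 by limma), beside 21.3% of all genes tested. For Saa3 the interaction was 0.27 with an interval of −1.05 to 1.59, and for Lcn2 0.34 with an interval of −2.25 to 2.93. In a comparison chosen after seeing the data, the Cd effect was averaged over both diets, which sets 8 mice given Cd against 8 without. Then 9 of the 10 genes rose, with Saa4 the exception (log2 difference −0.23, adjusted p = 0.508), beside 25.1% of all genes called and 5.52% called higher. Saa1 rose by 2.45 (SE 0.80, adjusted p = 0.0347), Saa2 by 3.12 (SE 0.87, adjusted p = 0.0175) and Saa3 by 3.72 (SE 0.31, adjusted p = 3.93e-06). Lcn2 rose by 3.38 (SE 0.61, adjusted p = 0.00165), Orm2 by 1.86 (SE 0.54, adjusted p = 0.0203) and Orm1 by 0.80 (SE 0.27, adjusted p = 0.0433). Hp rose by 0.87 (adjusted p = 0.00438), Hpx by 0.82 (adjusted p = 0.00829) and Apcs by 1.17 (adjusted p = 0.0032).

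**Figure D2:**
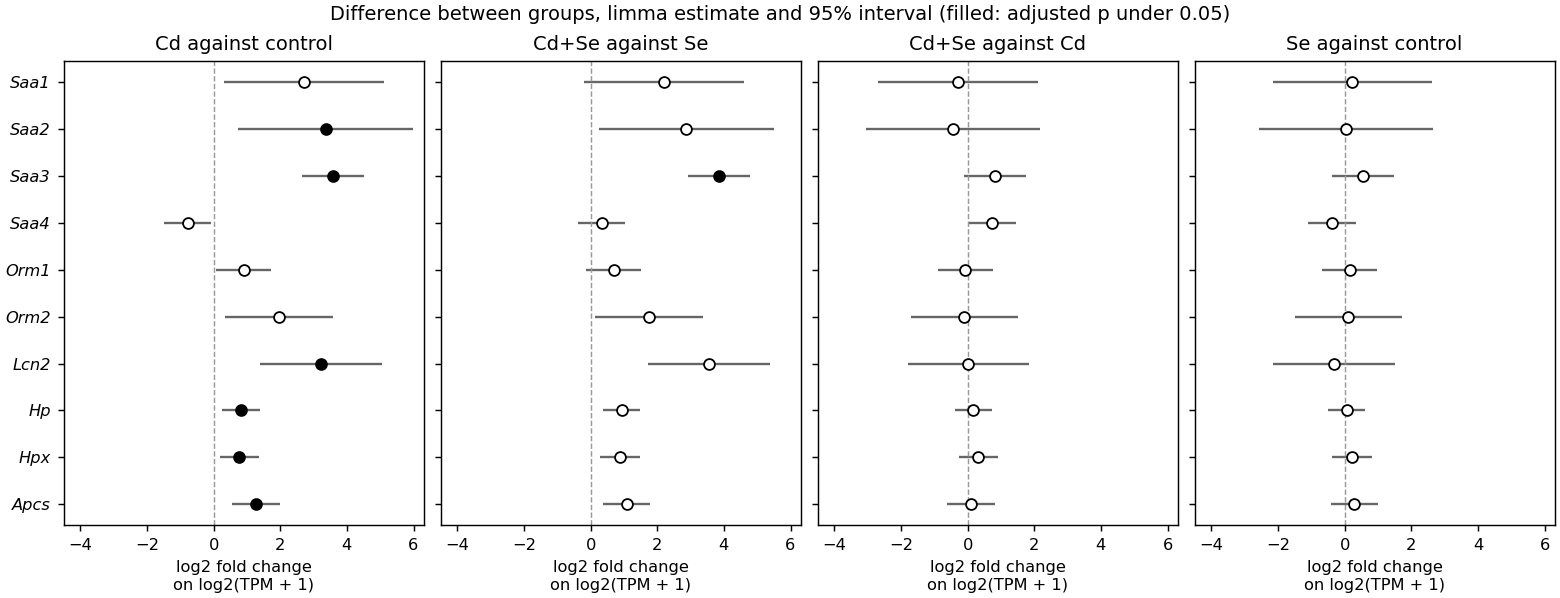
Log2 fold change of the 10 genes on the log2(TPM + 1) scale in 4 comparisons, with the limma estimate and its 95% interval. Filled points have an adjusted p under 0.05, which holds for 6 genes in Cd against control, for Saa3 in Cd+Se against Se, and for 0 genes in Cd+Se against Cd and in Se against control.

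Levels of most members varied together from mouse to mouse within groups as well as between them. Control mouse 27 was the highest control in 8 of the 10 genes, with Saa3 and Saa4 the exceptions. Cd mouse 1 was the lowest Cd mouse in 8 genes, Se mouse 39 the lowest Se mouse in 8, Cd+Se mouse 13 the highest of its group in 7 and Cd+Se mouse 16 the lowest in 7. Taken over 16 mice as a description, Pearson's r of log2(TPM + 1) with Saa1 was 0.99 for Saa2, 0.94 for Orm2 and Orm1 and 0.90 for Lcn2. After the group means were removed these were 0.996, 0.91, 0.90 and 0.88. The r with Saa1 was 0.84 for Hpx (0.80 within groups), 0.79 for Hp (0.67), 0.73 for Apcs (0.52), 0.67 for Saa3 (0.42) and 0.11 for Saa4 (0.40). With Hp, the r was 0.93 for Hpx (0.86 within groups), 0.91 for Apcs (0.79), 0.89 for Saa3 (0.77) and 0.18 for Saa4 (0.56). Saa3 thus lay near Apcs in its likeness to Hp and below it in its likeness to Saa1. Spearman's rho with Saa1 was 0.997 for Saa2, 0.979 for Orm2, 0.95 for Orm1 and 0.944 for Lcn2, and without the 2 mice farthest from the Saa1 median (control 29 and Se 39) Pearson's r was 0.995, 0.942, 0.923 and 0.90 in this order. All points share the groups and the TPM total of their library. The r of Saa2 with Saa1 also rests on how reads were divided between transcripts that are 93.9% identical.

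**Figure D3:**
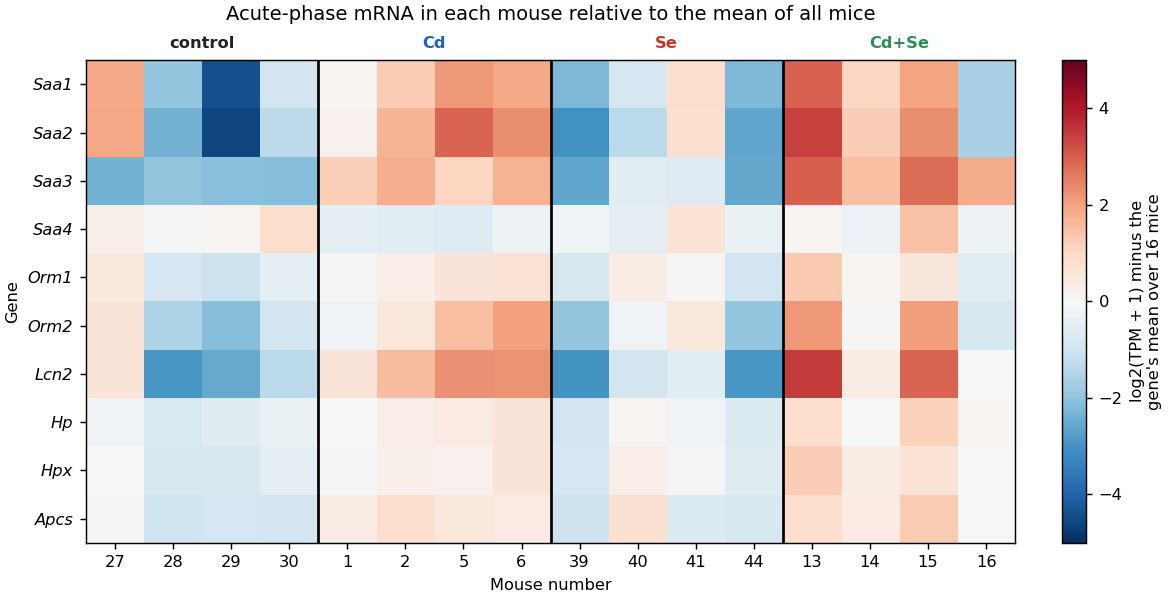
Heat map of log2(TPM + 1) minus the gene's mean over the 16 mice, with genes in rows and mice in columns by group. Red is above and blue below the gene's mean, and control mouse 27 is red for Saa1 and Saa2 and blue for Saa3.

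Over the 16 mice Pearson's r with Saa1 was 0.67 for Saa3 and 0.90 for Lcn2, and the difference between these was not tested. At similar Saa1 levels, 5641 TPM in control mouse 27 and 5808 TPM in Cd mouse 6, Saa3 was 11.0 and 206 TPM. Cd+Se mouse 16 and control mouse 28 were likewise close in Saa1, at 494 and 398 TPM, and their Saa3 was 222 and 15.1 TPM. Lcn2 in the first pair was 55.05 and 168 TPM and in the second 35.8 and 3.71 TPM. In both pairs Saa3 and Lcn2 were each higher in the mouse given Cd. These pairs were chosen after their values were seen.

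**Figure D4:**
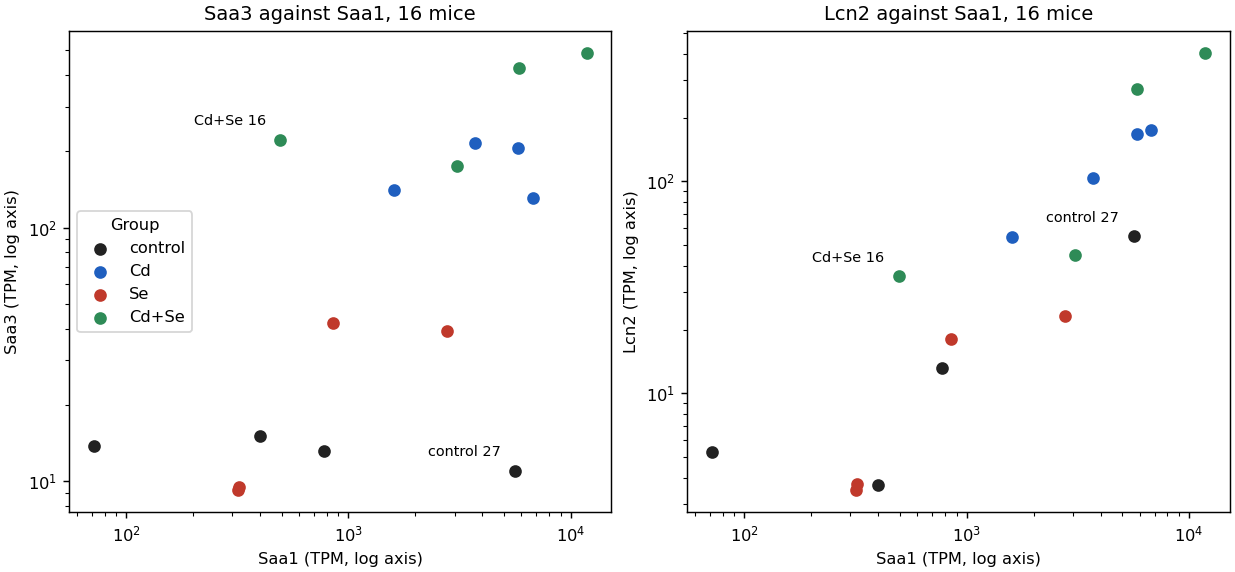
Saa3 (left) and Lcn2 (right) against Saa1 in each of the 16 mice (TPM, log axes), coloured by group. Saa3 lies in an upper band of 8 mice given Cd and a lower band of 8 without. Pearson's r with Saa1 on the log2(TPM + 1) scale was 0.90 for Lcn2 and 0.67 for Saa3. Lcn2 was also higher in the mouse given Cd in both pairs compared in the text.

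The balance between paralogs was looked at after the values were seen. The ratio of Saa1 to Saa2 TPM was 2.07 ± 0.275 in control (1.70 to 2.35), 1.32 ± 0.231 in Cd (1.03 to 1.60), 2.38 ± 0.496 in Se (1.81 to 2.996) and 1.47 ± 0.214 in Cd+Se mice (1.26 to 1.75). Cd and control did not overlap, and control mouse 27, with Saa1 at a Cd level, kept the lowest control ratio of 1.70. The log2 ratio was lower by −0.66 in Cd than in control and by −0.69 in Cd+Se than in Se, each with an exact permutation p of 0.0286, the smallest possible. Cd+Se and control differed by −0.50 (exact permutation p = 0.0571). Adjusted over the 5 pairs of groups compared, these p are 0.0714, 0.0714 and 0.0952, so that no ratio passes 0.05 after adjustment. Orm2 made up 3.45% to 7.77% of Orm1 plus Orm2 in control and 6.04% to 16.01% in Cd mice, a log2 difference of 1.08 in the ratio of Orm2 to Orm1 (exact permutation p = 0.0571, adjusted p = 0.190). Both ratios rest on how reads were divided between near-identical transcripts.

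**Figure D5:**
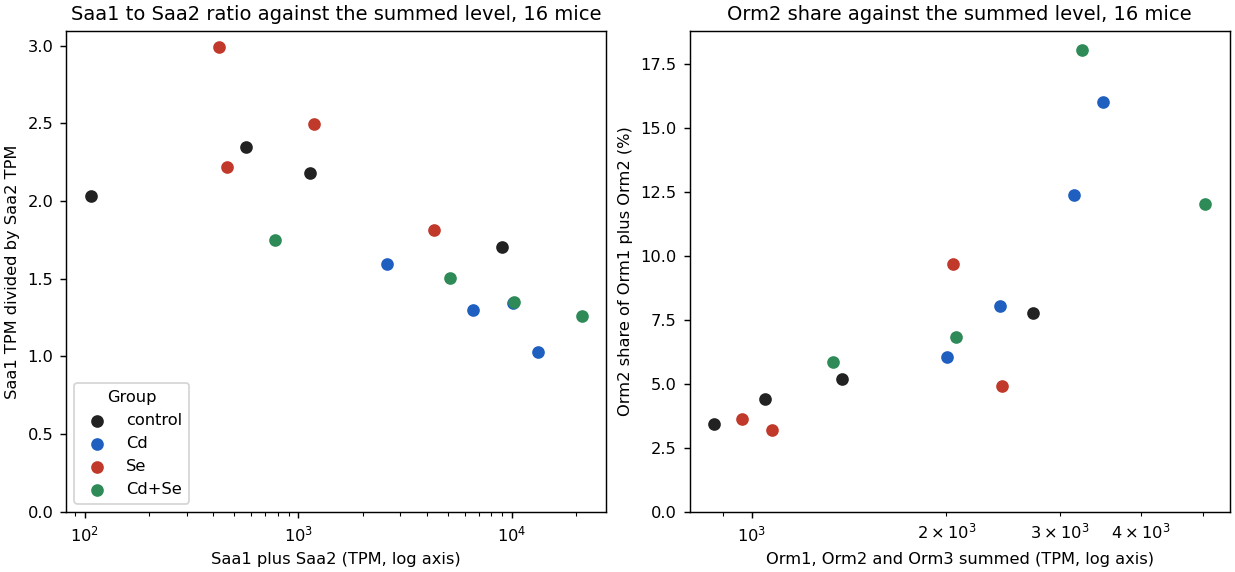
Ratio of Saa1 to Saa2 against their summed TPM (left) and Orm2 as a percent of Orm1 plus Orm2 against the summed Orm TPM (right), with 1 point per mouse and a log x axis. The Saa1 to Saa2 ratio is at or below 1.60 in the 4 Cd mice and at or above 1.70 in the 4 control mice.

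Outside the 10, the genes most like Saa1 over the 16 mice were Orm3 (r = 0.89), Itih4 (0.89), Wfdc21 (0.85), Fgl1 (0.85) and Vtn (0.81), and those most like Hp were Fgl1 (0.96), Itih4 (0.93), Ccng2, Vtn and Cfb (0.88 each). Transcripts of Orm3 are 86.1% identical to Orm1 and 88.0% to Orm2. Whether reads of these 2 far higher genes entered its level was not tested. Of 9 cytokine ligands, 3 were high enough to test and 0 were called (0 after quantile normalization and 1, Il1a, after centring). Il1b was 3.48 ± 1.43 TPM in control and 2.08 ± 0.55 TPM in Cd liver (log2 difference −0.49, adjusted p = 0.314). Il6 and Tnf were under the filter, with no mouse above 0.65 TPM in Il6 and 0.87 TPM in Tnf. Among 25 receptor and signalling genes tested, 1 rose and 5 fell (3 and 5 after quantile normalization, 3 and 4 after centring), while 5.82% of all genes tested rose and 24.9% fell, so the count of fallers was near the background. The riser was Nfkbia, an inhibitor of NF-kappa-B (log2 difference 0.53, adjusted p = 0.0268). The NF-kappa-B subunit Rela fell by 0.52 (adjusted p = 0.0291), a call that was lost after centring (adjusted p = 0.0531). Il6st fell by 0.98 (adjusted p = 0.000533), from 21.6 ± 1.35 TPM in control to 10.6 ± 2.19 TPM in Cd liver. Jak1 fell by 0.75 (adjusted p = 0.00108), the hepatocyte factor Hnf4a by 0.81 (adjusted p = 0.00173) and the glucocorticoid receptor Nr3c1 by 0.71 (adjusted p = 0.00217). Not called were Stat3 (−0.46, adjusted p = 0.147), its feedback inhibitor Socs3 (−0.033, adjusted p = 0.948), Cebpb (0.073, adjusted p = 0.876) and Cebpd (0.24, adjusted p = 0.441). Cd+Se against Cd gave 7 risers and 0 fallers in the same list, beside 13.6% of all genes called higher, and 4 risers and 0 fallers after quantile normalization or centring. Of all calls in this comparison, 85.3% were higher in the deposited values, 56.3% with quantile normalization and 42.4% with centred libraries. Il6st was higher by 0.89 (adjusted p = 0.00534) and Jak1 by 0.70 (adjusted p = 0.00686).

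Other positive acute-phase proteins changed in both directions after Cd. Of 28 tested, 4 rose and 4 fell, beside 5.82% of all genes tested called higher and 24.9% called lower. Their median log2 fold change was −0.17, equal to that of all genes. Those with the lowest adjusted p were the metallothioneins Mt1 (5.30, adjusted p = 1.86e-05) and Mt2 (5.88, adjusted p = 5.74e-05), which bind metals and respond to Cd itself, and the protease inhibitor Serpina3m (−1.63, adjusted p = 0.00078) and the metalloreductase Steap4 (−1.01, adjusted p = 0.00383), both of which fell. Fgl1 and Itih4, the genes most like Hp, were the other risers, at 1.18 (adjusted p = 0.0293) and 0.75 (adjusted p = 0.0378). Crp was 280.5 ± 25.6 TPM in control and 263 ± 41.1 TPM in Cd liver (−0.10, adjusted p = 0.599). Of 16 negative acute-phase genes, 2 rose and 3 fell, beside the same 5.82% and 24.9% of all genes. Trf, encoding transferrin, rose by 0.69 (adjusted p = 0.00491), while Cyp7a1, the rate-limiting enzyme of bile acid synthesis, fell by 2.55 (adjusted p = 9.3e-05), Cyp2c29 by 0.79 (adjusted p = 0.00145) and Igfals by 0.69 (adjusted p = 0.0058). Among 10 tested receptors and clearance genes, 1 rose and 2 fell, beside these same shares of all genes. Cd163, the macrophage receptor for haptoglobin bound to hemoglobin, fell by 2.56 (adjusted p = 1.86e-05), from 6.15 ± 0.843 TPM in control to 0.213 ± 0.137 TPM in Cd and 0.535 ± 0.191 TPM in Cd+Se liver. Heme oxygenase 1 (Hmox1), which breaks down the heme that hemopexin delivers, rose by 0.81 (adjusted p = 0.0211) in Cd against control and by a further 1.11 (adjusted p = 0.0122) in Cd+Se against Cd. Fpr1 fell by 0.60 (adjusted p = 0.0414). Some of these calls did not hold under another scaling: Itih4 (adjusted p = 0.0848), Trf (0.122), Igfals (0.0567) and Fpr1 (0.0667) lost theirs after quantile normalization, and Igfals (0.0826) and Fpr1 (0.123) also after centring. The other positive proteins then gave 3 risers and 6 fallers (quantile) or 6 and 3 (centred), the negative ones 1 and 3 or 6 and 2, and the clearance genes 2 and 1 or 3 and 1.

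Marker genes of liver cell types did not all move in 1 direction after Cd. Across all genes tested, 5.82% were called higher and 24.9% lower in Cd against control. All 10 hepatocyte markers were present, with a summed level of 66067 to 88296 TPM in control, 43911 to 71825 TPM in Cd, 65946 to 118450 TPM in Se and 57227 to 76708 TPM in Cd+Se liver. Albumin (Alb), which is also on the list of negative acute-phase genes, held most of this sum. Its mean was 52073 TPM in control and 33212 TPM in Cd liver, and it was not called (−0.68, adjusted p = 0.056 by limma). After Cd, 3 of the 10 estimates were positive. Of the 10, 1 fell after Cd, the urea cycle gene Cps1 (−1.36, adjusted p = 0.000169), while 4 fell after quantile normalization, and 2 rose and 1 fell after centring. The summed level of 12 neutrophil markers was 6.83 to 17.1 TPM in control, 35.9 to 43.6 TPM in Cd, 6.22 to 10.6 TPM in Se and 47.2 to 78.3 TPM in Cd+Se liver, and 4 of the 12 had a mean of at least 1 TPM. Of these 4, 3 rose after Cd, namely S100a8 (1.55, adjusted p = 0.00029), S100a9 (1.53, adjusted p = 0.00378) and Retnlg (1.14, adjusted p = 0.00602). S100a8 and S100a9 held most of the sum in Cd liver, at means of 12.65 and 21.25 TPM. The markers under 1 TPM were not tested. Among them, Ly6g, Mpo and Elane were at group means of at most 0.11 TPM. The others had higher means in Cd than in control liver. These were 0.705 and 0.01 TPM for Ltf, 0.84 and 0.1125 TPM for Ngp and 0.355 and 0.1825 TPM for Cxcr2. For Camp they were 0.2025 and 0.0275 TPM and for Mmp8 0.1 and 0.035 TPM. The highest neutrophil sum belonged to Cd+Se mouse 13, the mouse highest in 7 members, and the highest of the controls to mouse 27. Cd+Se mouse 16, the lowest of its group in 7 members, had a sum of 54.7 TPM. The summed level of 12 macrophage markers was 159 to 197 TPM in control, 85.3 to 121 TPM in Cd, 113 to 208 TPM in Se and 135 to 167 TPM in Cd+Se liver. Of 11 tested, 7 fell after Cd, among them Timd4 (−1.90, adjusted p = 1.42e-05) and Vsig4 (−1.96, adjusted p = 5.25e-05), and 2 rose, namely the monocyte genes Ly6c2 and Ccr2. In Cd+Se against Cd, 3 of the 11 were higher (Adgre1, Cd68 and Lyz2) and 0 were lower, beside 13.6% of all genes called higher. After quantile normalization 2 of the 11 were higher, and 1 after centring. Of 10 lymphocyte markers, 0 reached a mean of 1 TPM. Markers of endothelial and stellate cells summed to 142 to 194 TPM in control, 106 to 169.7 TPM in Cd, 107 to 197 TPM in Se and 98.7 to 237 TPM in Cd+Se liver. Of the 8 tested, 3 fell after Cd (Reln, Kdr and Stab2) and 0 rose, beside 24.9% and 5.82% of all genes. After quantile normalization or centring 1 of the 8 fell. Markers of adipocytes and kidney summed to 0.4 to 28.4 TPM. The part of these cells in the levels of Saa3, Lcn2 and the other members was not tested.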

How the data were processed

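Liver RNA of 16 mice was sequenced as poly(A) libraries. The deposited table holds TPM per gene, made by the authors with fastp, HISAT2 and StringTie according to the submitters' processing notes, with versions not given in the sources used here. The notes name GRCh38, a human assembly, although the gene identifiers are those of mouse genes. Each column summed to about 1e+06 TPM, so read depth is unknown and no counting intervals are given. Each title names rep1 and rep2 of a mouse, and the table has 1 column per mouse. The labels give no batch, and whether mice shared a litter or cage is not stated.

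TPM were transformed to log2(TPM + 1) and genes averaging 1 TPM or more were kept (11766 of 57010). A single limma model (version 3.58.1, R 4.3.3) held the 4 group means over all 16 libraries, with an intensity trend, Benjamini-Hochberg adjustment over all genes tested and a threshold of 0.05, two-sided. The study's methods name no test for the RNA-seq comparison, which the sequencing provider made. Paralog sums and ratios were compared by exact two-sided permutation tests (R 4.3.3). Spearman's rho was computed with scipy 1.17.1. The steps were tested on simulated data. All 10 members are reported. From each list of related genes the text gives the counts and at most 4 genes with the lowest adjusted p in Cd against control, plus Il6, Il1b, Tnf, Stat3, Socs3, Cebpb, Cebpd, Crp and Orm3, and the 5 genes most like Saa1 and Hp. Nfkbia, Rela, Ly6g, Mpo, Elane, Ltf, Ngp, Cxcr2, Camp, Mmp8, Ly6c2, Ccr2, Cd68 and Lyz2 fall outside this rule and were named after their values were seen. The members and lists were chosen with earlier results of these data known. Alternatives changed the pseudocount, filter, scaling, libraries in the model, variance trend, fold threshold and gene set, and left out each mouse. Gene positions come from GENCODE M21 (GRCm38) and promoter windows from RefSeq (GRCm38.p6), matched by symbol.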

Additional observations from a re-analysis of the deposited data

Results flagged for a closer look

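Within a group of 4 mice, 7 of 48 sets of TPM values held a mouse far from the other 3, where the gap to the nearest mouse took most of the range, and about 2.4 are expected by chance for normally distributed values. On the log2(TPM + 1) scale of the model, tried after seeing the data, 1 of the 48 remained, Apcs in control mouse 27 (gap over range 0.855), and the gap of Saa1 in that mouse was 0.455. Control mouse 27 was far above the other controls in Saa1 (gap over range 0.874), Saa2 (0.902), Apcs (0.891) and the sum of Saa1 and Saa2 (0.884). Its levels were 5641 TPM for Saa1 and 174 TPM for Apcs, and its Saa3 was 11.0 TPM, the lowest of the controls. Se mouse 41 stood out in Saa2 (0.836, at 1526 TPM) and Se mouse 40 in Apcs (0.890, at 318 TPM). Cd+Se mouse 15 stood out in Saa4 (0.868, at 409 TPM). The genes share these mice, so the 7 are not independent.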

How the results depend on the processing

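With 4 mice a group and unknown depth, intervals of Saa1, Saa2 and Lcn2 span several fold. TPM gives shares of a fixed total, so a change in some genes shifts the others. The median log2 fold change of all genes in Cd against control was −0.17 in the deposited values, −0.015 with quantile normalization and 0.048 with centred libraries, and 18.9%, 42.9% and 55.6% of calls were higher, respectively.

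The count of members called in Cd against control was 6, and 3 with no filter on low values, where many more genes enter the adjustment. It was 4 after quantile normalization, where Saa2 and Hpx lost their calls. Centring gave 8, where Orm1 and Orm2 gained calls. Leaving out a mouse gave 3 to 9, and the comparison averaged over both diets, chosen after seeing the data, gave 9. Saa3, Lcn2 and Apcs were called under all 25 alternatives, and no member changed sign in this comparison. In Cd+Se against Se the count was 1, with 0 when the model held only these groups, 2 with protein-coding genes only and 1 to 2 when a mouse was left out. In Cd+Se against control it was 1 to 2 when a mouse was left out. The causes were not tested. In Cd+Se against Cd, in Se against control and in the interaction 0 members were called under each alternative run.

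In Cd+Se against Cd, where no member was called, some estimates changed sign. Lcn2 was −0.057 after quantile normalization, −0.17 after centring and −0.0103 with protein-coding genes only, and after centring Hp was −0.0245 and Apcs −0.0942. Leaving out a mouse gave −0.57 to 0.58 for Lcn2, −0.0363 to 0.35 for Hp, −0.11 to 0.31 for Apcs, −0.38 to 0.23 for Orm1, −0.52 to 0.46 for Orm2, −0.91 to 0.61 for Saa1 and −1.14 to 0.54 for Saa2. The sum of Saa1 and Saa2 ran from −1.01 to 0.58 and that of the Orm genes from −0.38 to 0.26. No paired analysis was possible because the groups share no mouse numbers.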
